A study of Rattus norvegicus with 10 samples.

Results

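Keratins and genes of the epithelial junctions were followed in the RNA of rat milk whey. The set held every non-control array probe named for a numbered keratin (Krt), claudin (Cldn) or tight junction protein (Tjp), or for occludin (Ocln), F11r or E-cadherin (Cdh1). This gave 67 probes for 56 gene names, out of 41012 non-control probes. Milk was drawn from 3 F344/N dams on d 2, d 9 and d 16 postpartum, so that each day had 3 arrays and each dam was sampled on each day. One further array held the mixed serum RNA of the same 3 dams, taken on d 21. All dams were untreated apart from oxytocin and light anaesthesia at milking, and they had been obtained as pregnant adults. The whey was made by centrifuging milk to take off fat, cells, debris and casein, so the RNA measured was that left in a fluid depleted of cells. The serum array was a single pool and carries no spread of its own.

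Keratins are the intermediate filament proteins of epithelia, and they assemble as pairs of a type I and a type II chain. In the mammary gland Krt8, Krt18 and Krt19 mark the luminal cells that secrete milk and line the ducts, whereas Krt5, Krt14 and Krt17 mark the basal and myoepithelial layer that contracts around them. Claudins and occludin span the membrane at the tight junction, which seals the paracellular route between milk and blood, and the Tjp proteins (the zonula occludens proteins) tie them to actin. Cdh1 holds the adherens junction below, and F11r is an immunoglobulin-type adhesion molecule of the tight junction. In a fluid of mixed origin, a smaller contribution from 1 cell type and less of a transcript within each cell cannot be told apart.

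The array reports each gene through 60-base probes, and the probes are shown here for the members whose reading depends on which letters were on the array. The 3 luminal keratins were read by 4 probes, given in lower case 5′ to 3′ with the position that the files assign on rn4. The Krt8 probe lay at chr7:140716967-140717949 on the minus strand, a span longer than the probe. The Krt19 probe lay at chr10:89081437-89081496 on the minus strand. The files placed the Krt18 probes at chr2:80044443-80044502 on the plus strand (probe 1, A_44_P400494) and chr10:66107092-66107151 on the minus strand (probe 2, A_44_P1025476), while the RefSeq table for GRCr8 lists Krt18 next to Krt8. Signal from a copy of Krt18 elsewhere in the genome can therefore not be told apart from that of Krt18 itself.
Krt8: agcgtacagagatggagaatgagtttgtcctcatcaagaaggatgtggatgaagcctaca
Krt18 probe 1: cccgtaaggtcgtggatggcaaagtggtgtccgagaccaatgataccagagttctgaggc
Krt18 probe 2: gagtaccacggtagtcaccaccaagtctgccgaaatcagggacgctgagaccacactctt
Krt19: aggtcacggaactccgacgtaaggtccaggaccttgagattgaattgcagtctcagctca

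A further 3 probes are shown because neighbouring or related sequences bear on how they are read. The Krt33a probe, at chr10:88945565-88945624 on the minus strand, is listed by the files against 3 RefSeq transcripts, those of the hair keratins Krt33a, Krt33b and Krt31, so its signal cannot be given to 1 of them. Of 3 probes for Cldn18, only A_44_P621738 (chr8:104561478-104564152, minus strand) gave signal. The silent A_44_P492543 (chr8:104564165-104564224, minus strand) lay 12 bases from it.
Krt33a: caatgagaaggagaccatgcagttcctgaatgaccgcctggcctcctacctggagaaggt
Cldn18, bright probe: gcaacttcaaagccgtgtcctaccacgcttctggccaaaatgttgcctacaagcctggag
Cldn18, silent probe: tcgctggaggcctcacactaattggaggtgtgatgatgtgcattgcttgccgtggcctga

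Promoters are shown for the luminal keratin pair and the claudin pair that fell, since these members moved together between days. Each run is the 250 bases before the RefSeq start on GRCr8, 5′ to 3′ along the gene, with capitals for matches on either strand to the TATA box letters TATAAA, the GC box letters GGGCGG or the AP-1 letters TGANTCA. The windows are Krt8 at chr7:135010340-135010589 (minus strand), Krt18 at chr7:135035918-135036167 (plus strand), Cldn3 at chr12:27346548-27346797 (minus strand) and Cldn7 at chr10:55188420-55188669 (plus strand).
Krt8: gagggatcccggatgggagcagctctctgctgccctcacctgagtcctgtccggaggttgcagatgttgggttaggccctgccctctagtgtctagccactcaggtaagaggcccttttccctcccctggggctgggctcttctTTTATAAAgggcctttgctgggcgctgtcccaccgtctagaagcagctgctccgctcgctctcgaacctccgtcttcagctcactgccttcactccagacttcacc
Krt18: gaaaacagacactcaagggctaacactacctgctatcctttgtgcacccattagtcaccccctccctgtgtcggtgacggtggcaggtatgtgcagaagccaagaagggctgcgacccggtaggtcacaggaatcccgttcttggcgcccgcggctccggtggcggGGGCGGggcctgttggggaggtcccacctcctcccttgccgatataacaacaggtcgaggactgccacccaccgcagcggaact
Cldn3: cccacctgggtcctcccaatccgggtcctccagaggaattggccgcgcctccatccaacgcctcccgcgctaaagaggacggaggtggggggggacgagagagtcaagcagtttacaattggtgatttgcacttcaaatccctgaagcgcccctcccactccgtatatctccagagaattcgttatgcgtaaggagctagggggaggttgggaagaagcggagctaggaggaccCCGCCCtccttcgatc
Cldn7: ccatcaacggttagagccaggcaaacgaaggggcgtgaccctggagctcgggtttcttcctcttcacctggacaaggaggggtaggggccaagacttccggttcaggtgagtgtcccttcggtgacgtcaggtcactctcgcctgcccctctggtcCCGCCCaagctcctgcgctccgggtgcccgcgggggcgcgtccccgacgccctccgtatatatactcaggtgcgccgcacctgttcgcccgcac
Krt8 held TATAAA on both strands, at overlapping positions 106 and 104 bases before the start, a motif found in 12.9% of all 33469 windows of that length. Krt18, Cldn3 and Cldn7 held 1 GC box each, a motif found in 30.5% of windows, and none of the 4 held the AP-1 letters, found in 6.3%. No motif was thus common to all 4. Windows were found for 39 of the 52 member genes with a current symbol. Those of Krt19, Krt14, Krt15 and Cldn4 were not among them.

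In whey, 22 of the 67 probes, for 19 genes, were well above background on all 9 arrays, 12 were so on some arrays and 33 on none. The luminal keratins were complete (4 of 4 probes on all 9 arrays), as were 3 of the 4 basal keratins, while 16 of the 20 remaining hair, oral and other keratin probes and 15 of 26 claudin probes were on no whey array. By the detection rule used for the tests (well above background with a processed signal over 20 on at least 1 array of the group), 22 member probes were detected on d 2, 28 on d 9, 25 on d 16 and 5 in serum. The arrays differed in brightness, with a 75th percentile of processed signal of 12.5 to 83.2 over the whey arrays and 4.11 in serum, and the highest value belonged to d 9 of dam 3. Levels below are log2 normalised signals, on which 1 unit is a doubling. They compare arrays for 1 probe, and no probe's level is set against another's.

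Over the 29 member probes that could be tested between days, 10 (9 genes) changed between d 2 and d 9, and all 10 were lower on d 9. Of all 16849 probes tested, 17.6% were called in that comparison, 6.36% as lower and 11.3% as higher on d 9. The median member changed by -0.36 (log2) against 0.11 for all probes. Between d 2 and d 16, 10 member probes were called, 8 lower and 2 higher on d 16, against 28.5% of all probes, 12.4% lower and 16.0% higher. There the medians were -0.32 for the members and 0.04 for all probes. With spike-in scaling none of these calls was kept, and 4 other members were higher and 1 lower on d 9. Leaving out 1 array gave 4 to 12 calls for d 9 (4 without dam 2 on d 2 or dam 2 on d 9) and 5 to 14 for d 16 (5 without dam 2 on d 2 or any 1 of the d 16 arrays). Of the calls, 7 were shared by both comparisons, which use the same d 2 arrays. Between d 9 and d 16 limma called no member, with 4 member probes at an unadjusted p under 0.05, where 1.42% of all probes were called (0.564% higher and 0.855% lower on d 16).

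The luminal keratins fell after d 2 relative to the bulk of the probes. All 4 probes were lower on d 9 when arrays were brought to a common distribution. With spike-in scaling instead, the median tested probe rose by 1.52 (log2) on d 9. There Krt8 stood at 0.18 and Krt18 at 0.64 (probe 1) and 0.69 (probe 2). Krt19 alone still had a negative d 9 difference (-1.32), which did not pass. On d 16, where that median rose by 0.58, Krt8 (-0.62), Krt18 probe 1 (-0.09) and Krt19 (-1.79) stayed negative, and none passed. Krt19, a small type I keratin that lacks the usual tail, had the largest decrease of the members called in both comparisons. Its level in dams 1, 2 and 3 was 10.44, 10.89 and 11.11 on d 2, then 8.64, 7.68 and 7.89 on d 9, and 7.98, 8.85 and 8.73 on d 16. All 3 d 2 arrays lay above all 6 later ones, with a gap of well over 1 unit. The difference was -2.75 ± 0.33 (SE, limma adjusted p = 0.00353) for d 9 and -2.29 ± 0.33 (adjusted p = 0.00278) for d 16, which corresponds to a 6.71-fold and a 4.90-fold decrease.

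Krt8, the type II keratin of simple epithelia, was at 9.19, 9.38 and 9.45 on d 2, at 8.34, 7.57 and 8.20 on d 9, and at 8.27, 8.07 and 8.20 on d 16. The d 2 values again lay above all later ones, and dam 2 on d 9 was the lowest. The change was -1.31 ± 0.21 on d 9 (adjusted p = 0.00726) and -1.16 ± 0.21 on d 16 (adjusted p = 0.00607).

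Krt18 is the type I partner of Krt8. Probe 1 read 13.02, 13.29 and 13.41 on d 2, 12.47, 12.03 and 12.53 on d 9, and 12.37, 12.60 and 12.60 on d 16. Probe 2 read 11, 11.24 and 11.35 on d 2, 10.64, 10.27 and 10.52 on d 9, and 10.67, 10.84 and 10.99 on d 16. With either probe no d 2 array overlapped a later one. Probe 1 differed by -0.90 ± 0.18 on d 9 (adjusted p = 0.0143) and by -0.72 ± 0.18 on d 16 (adjusted p = 0.0203). Probe 2 differed by -0.72 ± 0.16 on d 9 (adjusted p = 0.0198), whereas on d 16 it differed by -0.36 ± 0.16, which did not pass (adjusted p = 0.122, 95% interval -0.72 to 0.00). With normexp the d 16 difference of probe 2 passed (-0.36, adjusted p = 0.0300). From d 9 to d 16 none of the 4 luminal probes passed, with differences of 0.14 to 0.45. Leaving out 1 array ended the d 9 call of probe 2 in 2 of 9 fits (dam 2 on d 2 or on d 9, adjusted p = 0.0627 and 0.0686). It ended the d 16 call of probe 1 in 4 of 9 (dams 2 and 3 on d 2, dams 1 and 3 on d 16, adjusted p up to 0.0629).

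**Figure D1:**
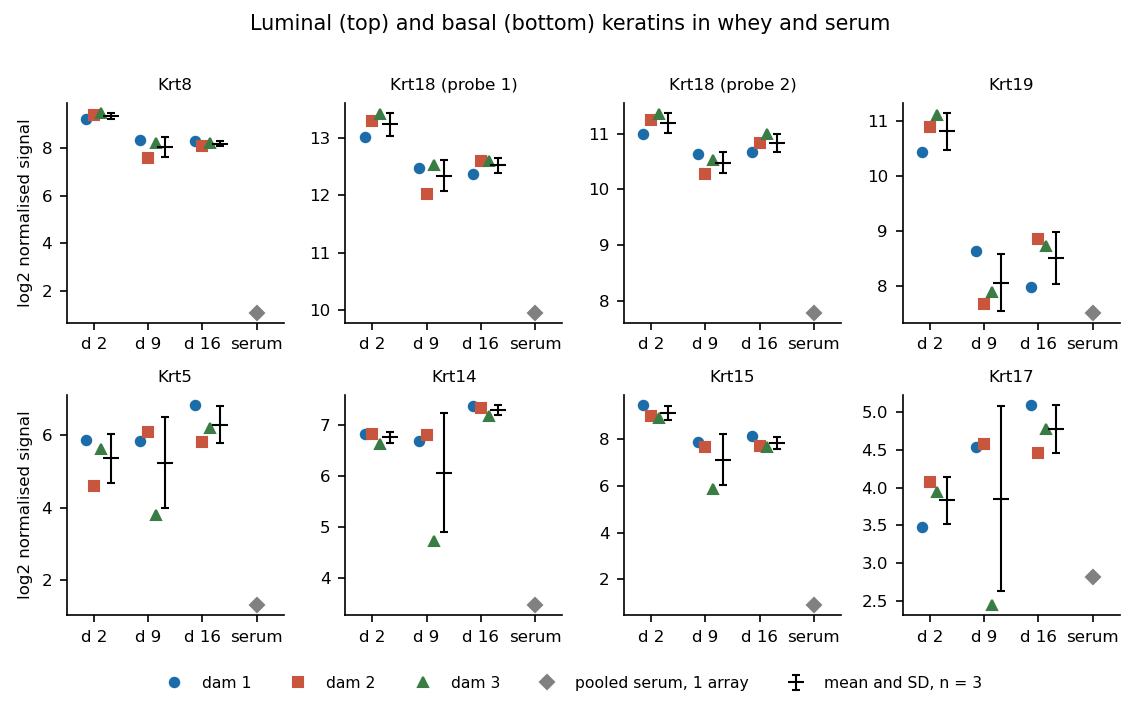
Log2 normalised signal (y axis, each panel on its own scale) of luminal keratins (top) and basal keratins (bottom) on d 2, d 9 and d 16 in whey of dams 1 to 3, with the day's mean and SD (n = 3), and in the pooled serum (1 array). Krt19 was between 10.44 and 11.11 on d 2 and between 7.68 and 8.85 later. Dam 3 on d 9, the brightest array, had the lowest normalised whey value of each basal keratin. With spike-in scaling the d 9 decreases of Krt8 and Krt18 turned to small increases. The d 16 differences of Krt8, Krt18 probe 1 and Krt19 stayed negative with that scaling, and none passed.

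The comparisons coincided with the slides, that of d 9 with d 2 in part and those with d 16 in full. Dams 1 and 2 on d 2 were on 1 slide, dam 3 on d 2 shared a slide with the 3 d 9 arrays, and the d 16 arrays and serum were on another. Within the shared slide, the d 9 arrays differed from dam 3 on d 2 by -3.04 for Krt19, -1.42 for Krt8, and -1.07 and -0.87 for Krt18 probes 1 and 2, each at least as large as over all arrays. With a single d 2 array there, none of these passed (adjusted p = 0.150 to 0.238), and with slide as a fixed block Krt19 alone of the 10 members called on d 9 passed (adjusted p = 0.0275). No such value exists for d 16 against d 2 or d 9, since the d 16 arrays shared no slide with other whey arrays, so there day and slide cannot be told apart. With slide as a random block all 10 members called on d 16 passed. That fit cannot separate day from slide either, since the d 16 whey arrays lay on their own slide. Other genes of luminal cells gave other values on the same arrays. Csn2 (β-casein) rose by 1.04 ± 0.18 (adjusted p = 0.00581) and Lalba (α-lactalbumin) by 1.07 ± 0.20 (adjusted p = 0.00764) from d 2 to d 16. Both calls were lost with spike-in scaling (1.68 and 1.58, adjusted p = 0.176 and 0.217). The arrays held equal masses of RNA. In equal volumes of whey, the authors' quantitative PCR had Csn2 unchanged and Lalba higher on d 2. The luminal regulator Elf5 differed by -0.28 ± 0.21 and the adhesion molecule Epcam by 0.43 ± 0.33, and neither passed (adjusted p = 0.340 and 0.362).

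Of the 4 basal keratins, Krt15 fell on d 9 and the others did not pass. Krt15, a type I keratin of basal and progenitor layers, was at 9.48, 9.02 and 8.93 on d 2, at 7.87, 7.66 and 5.86 on d 9, and at 8.13, 7.73 and 7.66 on d 16. It was above all later values on d 2. It differed by -2.01 ± 0.49 on d 9 (adjusted p = 0.0301), and the difference of -1.30 ± 0.49 on d 16 did not pass (adjusted p = 0.0848). The d 9 call was lost in 5 of 9 fits that left out 1 array (any d 2 array, dam 2 on d 9 or dam 3 on d 16, adjusted p up to 0.0778).

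Krt14, the main type I keratin of basal cells, was at 6.83, 6.82 and 6.63 on d 2, at 6.68, 6.80 and 4.74 on d 9, and at 7.36, 7.33 and 7.18 on d 16. Its partner Krt5 was at 5.88, 4.60 and 5.62, then 5.85, 6.08 and 3.79, then 6.84, 5.82 and 6.21. Krt17, another basal type I keratin, was at 3.48, 4.07 and 3.94, then 4.54, 4.57 and 2.45, then 5.09, 4.45 and 4.77, and it was well above background on 8 of 9 whey arrays. The d 16 values of Krt14 and Krt17 lay above all of their d 2 values, those of Krt5 did not. The differences of d 16 from d 2 were 0.53 ± 0.49 for Krt14, 0.92 ± 0.63 for Krt5 and 0.94 ± 0.54 for Krt17 (adjusted p = 0.450, 0.310 and 0.233), with a 95% interval for Krt14 of -0.60 to 1.66.

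Dam 3 on d 9 held the lowest normalised whey value of all 4 basal keratins, while it held the lowest value of 9.67% of all tested probes. It was also the lowest for 8 of the 22 other members with values on each array of at least 1 day, among them F11r, Cldn18 and both probes of Ocln and of Cldn4. The same array was lowest for 8 of the 8 basal or myoepithelial marker genes tested, a list that shares Krt5, Krt14 and Krt17 with the members. Among those outside the members, Myh11 (smooth muscle myosin) was at 6.66, 6.78 and 3.53 in dams 1, 2 and 3 on d 9, Cnn1 (calponin) at 6.87, 6.72 and 4.46, and Tagln (transgelin) at 10.04, 10.21 and 7.60. After normalisation dam 3 on d 9 was thus far below the others of its day for the contractile genes as well. That array was the brightest, with a 75th percentile signal of 83.2 against 21.2 and 41.8 in dams 1 and 2 on d 9. Before normalisation it read 93.9 (Krt14), 223 (Krt15), 43.9 (Krt5) and 13.6 (Krt17). Dams 1 and 2 on d 9 read 93.1 and 216, 219 and 391, 52 and 127, and 20.5 and 41.4. Dam 1 on d 2 was lower for Krt14, Krt5 and Krt17 (56.7, 28.5 and 6.19). The 9 list genes with a probe summed to a linear normalised signal of 675 to 1070 on d 2. The sum was 324 to 1760 on d 9, 1740 to 2470 on d 16 and 655 in serum. In serum only Mylk (8.64) and Tagln (7.81) were above background. In the main fit none of the 8 tested genes was called between days (Tagln on d 16, 1.55 ± 0.64, adjusted p = 0.110). Oxtr was on no whey array. Without dam 3 on d 9 the spread of the basal keratins shrank. The differences of d 16 from d 2, themselves unaltered, then passed for Krt14 (0.53, adjusted p = 0.0125), Krt17 (0.94, adjusted p = 0.0178) and Krt15 (-1.30, adjusted p = 0.00441). All 3 also passed in a fit of the d 2 and d 16 arrays alone (adjusted p = 0.0267, 0.0383 and 0.0119). With all arrays, that of Krt15 passed with normexp (-0.98, adjusted p = 0.0203). The d 9 calls of the luminal keratins held without dam 3 on d 9 as well. The part of this array, or of myoepithelial RNA, in the basal keratin values was not tested.

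The remaining keratins were sparse. The Krt33a probe, which is shared with Krt33b and Krt31, was at 7.40, 7.44 and 7.68 on d 2, 6.97, 6.19 and 6.96 on d 9, and 6.66, 6.64 and 6.81 on d 16. It was lower on both later days, by -0.80 ± 0.22 each (adjusted p = 0.0419 and 0.0296). The d 9 call was lost without any 1 of the d 2 or d 16 arrays or dam 2 on d 9 (adjusted p up to 0.0961), and the d 16 call without dams 2 or 3 on d 2 or any 1 of the d 16 arrays (adjusted p up to 0.0835). Krt1, a type II keratin of the suprabasal epidermis, was well above background on all 9 arrays, between 3.86 and 5.26, with differences from d 2 of -0.08 ± 0.44 and -0.39 ± 0.44 that did not pass (adjusted p = 0.922 and 0.541). Its partner Krt10 was on no whey array, nor were Krt9, Ivl, Krtdap, Dsc1 or Casp14 of the epidermal lists. Sbsn was on 7 of 9. The epidermal keratinocyte markers summed to 36.9 to 87.1 over the whey arrays and 251 in serum.

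Krt72, a keratin of the hair follicle's inner root sheath, was above background in dams 1 and 2 on d 2 only (4.95 and 5.26, against at most 1.45 elsewhere). Those arrays were the only ones on their slide. Dam 3 on d 2, on another slide, was no higher than later arrays, at 0.83. Dam and slide can thus not be told apart for this signal. Since no later array was above background, no difference between days is given. In the counts of calls, Krt72 was the member lower on d 9 and the member called on d 16 with spike-in scaling. It also passed in both comparisons without dam 3 on d 2. Those calls rest on the same d 2 arrays of dams 1 and 2. The probe named Krt1-5 (now Krt36) was above background on 4 whey arrays, with values of 1.57 to 4.04 over all 9, and Krt20 on 1. Neither was bright enough to be tested. The other keratins, Krt4, Krt9, Krt10, Krt12, Krt13, Krt14l, Krt24, Krt25, Krt26, Krt32, Krt34, Krt39, Krt73, Krt75, Krt76, Krt77, Krt82 and Krt84, were on no whey array, and Krt7 has no probe of that name.

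Among claudins, Cldn3 and Cldn7 fell after d 2 relative to the bulk of the probes and Cldn8 rose on d 16, while Cldn23 did not pass. With spike-in scaling the d 9 differences of Cldn3 and Cldn7 turned to 0.09 and 0.23, and their d 16 differences stayed negative at -0.93 and -0.45. Cldn3, a sealing claudin of glandular epithelia, was at 9.48, 9.06 and 9.33 on d 2, 8.31, 7.10 and 8.29 on d 9, and 8.0, 7.37 and 8.07 on d 16. Dam 2 was the lowest on all 3 days, and no d 2 value overlapped a later one. The d 9 and d 16 differences were -1.39 ± 0.35 (adjusted p = 0.0332) and -1.48 ± 0.35 (adjusted p = 0.0181). The d 9 call was lost in 5 of 9 fits without 1 array (any d 2 array, dam 2 on d 9 or dam 3 on d 16, adjusted p up to 0.0819), the d 16 call without dam 2 on d 16 (adjusted p = 0.0604).

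Cldn7, which in many epithelia also lies along the lateral membrane, was at 6.53, 6.49 and 6.0 on d 2, 4.97, 5.43 and 5.02 on d 9, and 5.32, 5.55 and 5.00 on d 16. All later values were below all d 2 values. It differed by -1.20 ± 0.22 on d 9 (adjusted p = 0.0112) and -1.05 ± 0.22 on d 16 (adjusted p = 0.0112). Like Krt8 and Krt19, Cldn7 kept both calls when any 1 of the 9 whey arrays was left out. Unlike theirs, its d 9 difference was smaller within the shared slide, at -0.86 from the single d 2 array there.

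Cldn8, a claudin known from tight epithelia such as the collecting duct, was at 4.87, 4.13 and 4.38 on d 2, 4.70, 5.14 and 4.47 on d 9, and 5.50, 5.34 and 5.28 on d 16. The d 16 values lay above all others. The d 16 difference of 0.91 ± 0.24 passed (adjusted p = 0.0244), and that on d 9 did not (0.31 ± 0.24, adjusted p = 0.381). With spike-in scaling the d 9 difference passed (1.74, adjusted p = 0.0413). Without dams 2 or 3 on d 2 or any 1 of the d 16 arrays the d 16 call was lost (adjusted p up to 0.0756), as it was with normexp (0.27, adjusted p = 0.0531), with spike-in scaling (1.53, adjusted p = 0.235) and without a filter on dim probes (adjusted p = 0.0513). Cldn23 was at 5.98 to 6.38 on d 2, 5.56 to 6.24 on d 9 and 5.53 to 5.77 on d 16. Its d 16 difference of -0.48 ± 0.20 did not pass (adjusted p = 0.109).

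**Figure D2:**
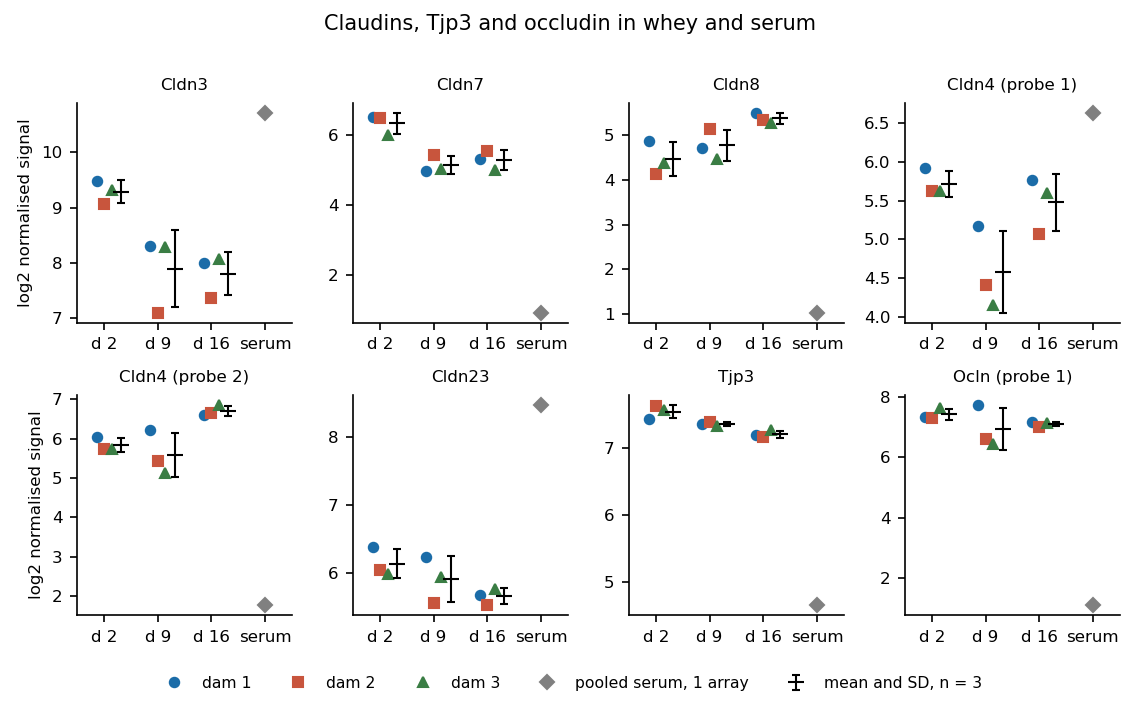
Log2 normalised signal (y axis, each panel on its own scale) of claudins, Tjp3 and Ocln (A_44_P1007729) on d 2, d 9 and d 16 in whey of dams 1 to 3, with the day's mean and SD (n = 3), and in the pooled serum (1 array). Cldn3 and Cldn7 were highest on d 2, Cldn8 was highest on d 16, and the probes of Cldn4 differed in which day was highest; with spike-in scaling the d 9 decreases of Cldn3 and Cldn7 turned to increases.

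The 2 probes of Cldn4, a sealing claudin whose gene neighbours Cldn3, did not move together. Probe 1 (A_44_P299550, chr12:22816744-22816803) was at 5.92, 5.63 and 5.62 on d 2, 5.17, 4.41 and 4.15 on d 9, and 5.77, 5.07 and 5.60 on d 16. Probe 2 (A_44_P975437, chr12:22817873-22817932) was at 6.04, 5.73 and 5.75, then 6.21, 5.43 and 5.13, then 6.60, 6.66 and 6.86. Probe 1 was lowest on d 9, whereas probe 2 was highest on d 16. Probe 1 fell on d 9 (-1.15 ± 0.29, adjusted p = 0.0335) and did not pass on d 16 (-0.25 ± 0.29, adjusted p = 0.557). Probe 2 did not pass on d 9 (-0.25 ± 0.26, adjusted p = 0.530) and rose on d 16 (0.87 ± 0.26, adjusted p = 0.0432). Neither call was firm. That of probe 1 was lost in 6 of 9 fits without 1 array (any d 2 array, dams 2 or 3 on d 9, dam 3 on d 16, adjusted p up to 0.105), that of probe 2 in 7 of 9 (any d 2 or d 16 array, dam 2 on d 9, adjusted p up to 0.127). In the pooled serum probe 1 was well above background and probe 2 was not. No single direction can thus be given for Cldn4.

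Cldn18, known from the stomach and lung, was represented by its bright probe alone, at 9.94, 9.47 and 8.89 on d 2, 8.51, 8.28 and 6.81 on d 9, and 9.37, 8.59 and 8.94 on d 16. The d 9 values were the lowest in each dam, and the difference of -1.56 ± 0.48 did not pass (adjusted p = 0.0584). With dam as a block in the fit (the paired analysis) it did (-1.56, adjusted p = 0.0300). It also passed with normexp (-1.20, adjusted p = 0.0212), a stricter filter (adjusted p = 0.0403) and slide as a random block (-1.62, adjusted p = 0.0398). Before normalisation its processed signal was 337 to 723 on the whey arrays and 387 in serum, although the arrays' 75th percentiles differed far more than that. The silent probe 12 bases away read 1.77 to 2.23 in whey and 1.67 in serum.

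Cldn10 was above background on 6 whey arrays, with values of 1.77 to 4.91 over all 9, and was not bright enough to be tested. Cldn1, Cldn9 and Cldn12 were above background on at most 4 arrays, and Cldn1 and Cldn9 did not pass in any comparison, except that with spike-in scaling a Cldn1 probe passed on d 9 (1.71, adjusted p = 0.0435). Cldn2, Cldn5, Cldn6, Cldn11, Cldn14, Cldn15, Cldn16, Cldn17, Cldn19 and Cldn22 were on no whey array. Cldn5 is the claudin of endothelium, and of the 7 endothelial markers 5 were on no whey array. The endothelial markers summed to 15.2 to 38.3 over the whey arrays and 594 in serum.

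Of the plaque proteins under the tight junction, Tjp3 was lower on d 16 and Tjp1 was dim. Tjp3 (ZO-3) lay between 7.16 and 7.62. Its difference of -0.33 ± 0.10 on d 16 passed (adjusted p = 0.0462), did not pass with dam as a block (adjusted p = 0.0671), and was 0.25 with spike-in scaling. It was also lost in 7 of 9 fits without 1 array, all but those without dam 1 on d 2 and dam 3 on d 9 (adjusted p up to 0.14). The brightest of 4 Tjp1 (ZO-1) probes ran from 3.07 to 4.57, and its differences of 0.24 ± 0.36 and 0.38 ± 0.36 did not pass (adjusted p = 0.672 and 0.458).

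The transmembrane partners had no call between days in the main fit. Ocln was read by 2 probes. A_44_P1007729 was at 7.34, 7.30 and 7.63 on d 2, 7.73, 6.62 and 6.45 on d 9, and 7.17, 7.01 and 7.13 on d 16, and A_43_P12552 had the same order of dams on d 9. Dam 1 on d 9 was the highest of all whey arrays with either probe. The d 9 differences were -0.49 ± 0.31 and -0.36 ± 0.36 (95% intervals -1.21 to 0.23 and -1.19 to 0.46), and without dam 1 on d 9 both passed (-0.89 and -0.84, adjusted p = 0.0175 and 0.0129). F11r differed by -0.34 ± 0.26 on d 9 and 0.15 ± 0.26 on d 16 (adjusted p = 0.385 and 0.701). Cdh1 was at 4.54, 3.83 and 4.02 on d 2, 4.54, 4.71 and 4.10 on d 9, and 4.64, 4.81 and 4.91 on d 16. It was higher on d 16 than on d 2 in 3 of 3 dams with a difference of 0.66 ± 0.23 that did not pass (adjusted p = 0.0644). The d 16 difference of Cdh1 passed without dam 1 on d 2 (0.86, adjusted p = 0.0254) or dam 3 on d 9 (0.66, adjusted p = 0.0416). With all arrays it passed with a stricter filter (adjusted p = 0.0464) and with slide as a random block (adjusted p = 0.0431). With spike-in scaling the d 9 difference of Cdh1 passed (1.71, adjusted p = 0.0432).

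**Figure D3:**
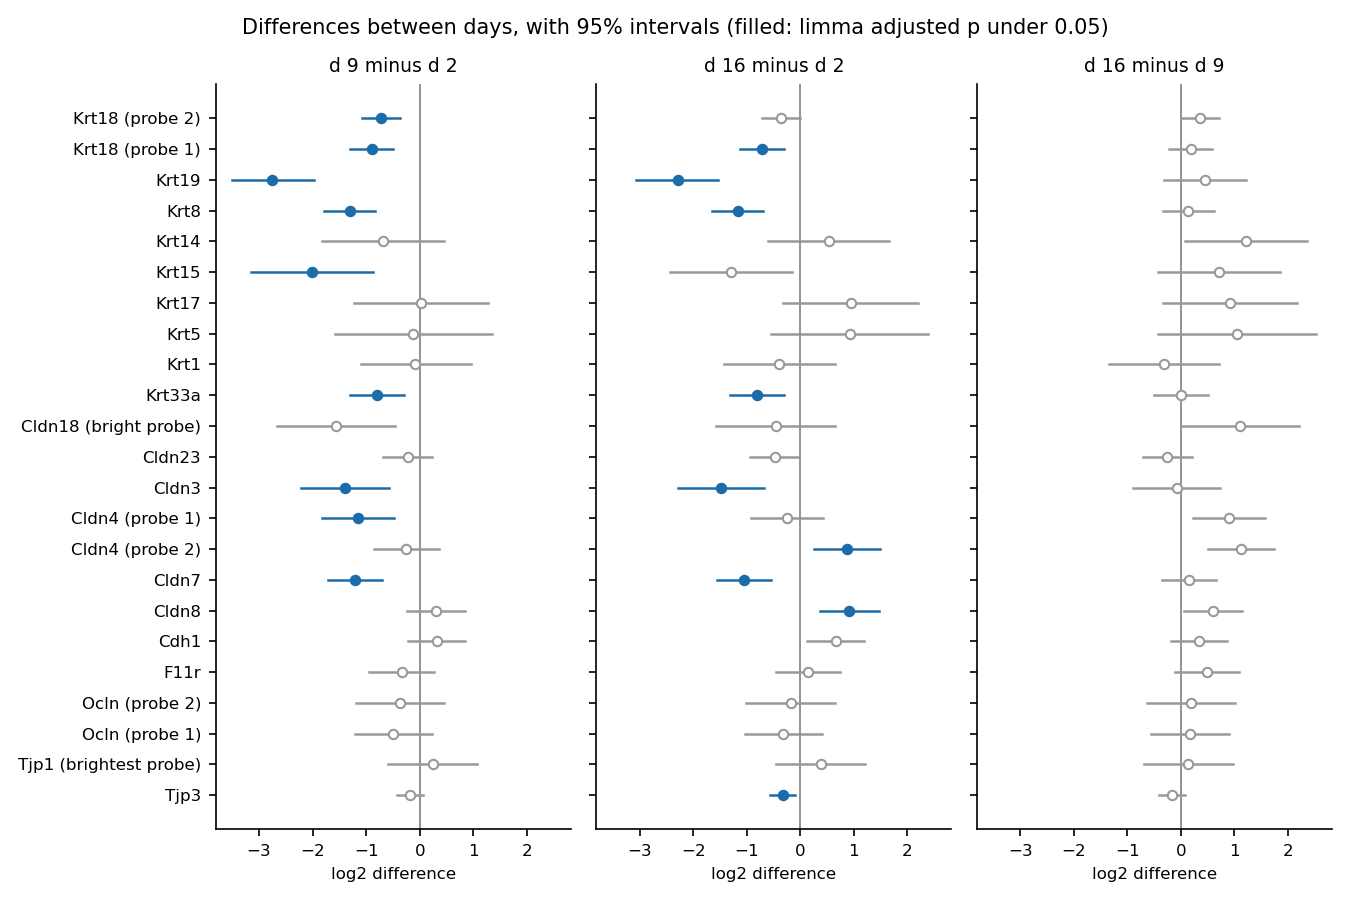
Log2 difference between days (x axis) for the member probes described here that had values on every whey array of at least 1 day and could be tested, with its 95% interval from the limma fit; filled points passed at an adjusted p under 0.05. Luminal keratins, Cldn3 and Cldn7 lie left of 0 in both comparisons with d 2, Cldn8 and Cldn4 probe 2 lie right of 0 on d 16, and no point is filled for d 16 minus d 9; with spike-in scaling Krt19 and Krt15 alone of the 10 members called on d 9 stayed below 0.

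Other junction and filament genes, from a list of 37 of which 34 were on the array and 22 could be tested, gave shares of calls that can be set beside those of all probes. On d 9, 2 of 22 were called, both lower, against 17.6% of all probes, and on d 16, 7 of 22 (3 higher and 4 lower) against 28.5%, with medians of -0.11 and 0.02 against 0.11 and 0.04 over all probes. The plakophilin Pkp2, a desmosomal plaque protein, was lower on both days (-0.66 ± 0.15, adjusted p = 0.0260, and -0.62 ± 0.15, adjusted p = 0.0220), and Ctnnd1 (p120 catenin, which holds cadherins at the membrane) on d 9 (-1.14 ± 0.32, adjusted p = 0.0442). On d 16 Pkp3, the polarity kinase Prkci and the cornified envelope precursor Evpl were also lower (-1.08, -0.90 and -0.75, adjusted p = 0.00651, 0.0225 and 0.0460). With spike-in scaling, tried for this list after seeing the data, the d 9 differences of Pkp2 and Ctnnd1 turned to 0.81 and 0.22, and the d 16 calls of Pkp2, Pkp3, Prkci and Evpl were lost (-0.04, -0.48, -0.31 and -0.14). Ctnnb1 (β-catenin), which links Cdh1 to actin and also serves in Wnt signalling, rose on d 16 by 1.52 ± 0.24 (adjusted p = 0.00377). The polarity genes Pard6b (1.29 ± 0.17, adjusted p = 0.00215) and Crb3 (0.51 ± 0.16, adjusted p = 0.0452) rose as well. These 3 calls were lost with spike-in scaling, at 2.12, 1.91 and 1.08 (adjusted p = 0.0582, 0.104 and 0.453), and those of Crb3 and Evpl also with 75th percentile scaling (adjusted p = 0.0604 and 0.0847). Ctnnb1 and Pard6b were the 2 list genes called between d 9 and d 16 (1.27 and 0.95, adjusted p = 0.0496 and 0.0489), where 1.42% of all probes were. Both calls were lost with 75th percentile scaling (adjusted p = 0.0593 and 0.0605) and with spike-in scaling (0.36 and 0.08, adjusted p = 0.682 and 0.929), and that of Pard6b also with normexp (adjusted p = 0.0870). Desmosomal cadherins and desmoplakin (Dsg2, Dsg3, Dsc2, Dsc3, Dsp) were on no whey array.

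Markers of macrophages moved over the same days. Of 7 macrophage marker genes tested, 4 were higher on d 9 and 5 on d 16, against 11.3% and 16.0% of all probes called higher. These calls were kept with spike-in scaling. The summed signal of the macrophage list was 371 to 467 on d 2, 334 to 735 on d 9, 1140 to 1660 on d 16 and 8600 in serum. The erythroid marker LOC287167 also rose, by 1.02 on d 9 and 2.12 on d 16 (adjusted p = 0.0313 and 0.00134). Of the macrophage markers, Cd14 was lower on both days, though not called with spike-in scaling, and the defining marker Csf1r was on no whey array. Whether these markers have a part in the keratin and junction changes was not tested.

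Against serum, the luminal keratins read higher in whey, and the claudins measured in both fluids read higher in serum except with spike-in scaling. In all, 9 member probes, for 8 genes, cleared the background on every whey array and in the serum pool. Of these, 2, both for Krt18, were over 4-fold higher in whey, against 8.69% of the 4635 probes measured in both fluids, and 3 claudin probes were over 4-fold higher in serum, against 17.4%. Krt18 probe 1 averaged 12.70 ± 0.45 in whey (SD, n = 9) and read 9.95 in serum. Probe 2 averaged 10.84 ± 0.35 and read 7.78. Even the lowest whey array was above serum with both probes. Krt19 (9.13 ± 1.33 against 7.52) differed by less than 4-fold as a mean over the 9 whey arrays, at 1.62 units. Its day means in whey were 10.81 on d 2, 8.07 on d 9 and 8.52 on d 16. The 9-array difference was 1.37 units with normexp, and over 4-fold with 75th percentile scaling (2.47) and spike-in scaling (5.29).

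Cldn18 (8.76 ± 0.90 in whey, 11.76 in serum), Cldn23 (5.90 ± 0.29, 8.47) and Cldn3 (8.33 ± 0.83, 10.72) were higher in serum by 3.00, 2.57 and 2.39 units, and with spike-in scaling, which moved the median difference of all 4635 probes from 0.16 to 3.71, they turned to 0.52, 1.14 and 1.21 higher in whey. Cldn4 probe 1 and F11r were higher in serum by 1.38 and 1.24 units, and with spike-in scaling were 2.01 and 2.05 higher in whey. The values rest on 1 serum array, brought to the distribution of far brighter whey arrays. Krt18 and Krt19 were higher in whey with every scaling tried.

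A further 13 member probes cleared the background on every whey array but not in serum. For 7 of them a bound could be given, comparing the whey mean with the dimmest serum probe still above background (5.84). Krt8 was at least 6.39-fold higher in whey, Krt15 at least 4.59-fold, Tjp3 at least 2.88-fold, Ocln (A_44_P1007729) at least 2.48-fold, Krt33a at least 2.19-fold and Krt14 at least 1.82-fold. The lowest bound was 1.15-fold, for Cldn4 probe 2. These bounds are with quantile normalisation. That of Krt8 was 5.60-fold with normexp and 62.3-fold with spike-in scaling, and no other of them was lower under another scaling. Conversely Krt76, a type II keratin of oral epithelium, was above background in serum alone and at least 14.4-fold higher there (1.47-fold with spike-in scaling, 2.66-fold with normexp), with a processed signal of 12.8 against 1.81 to 5.03 in whey.

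**Figure D4:**
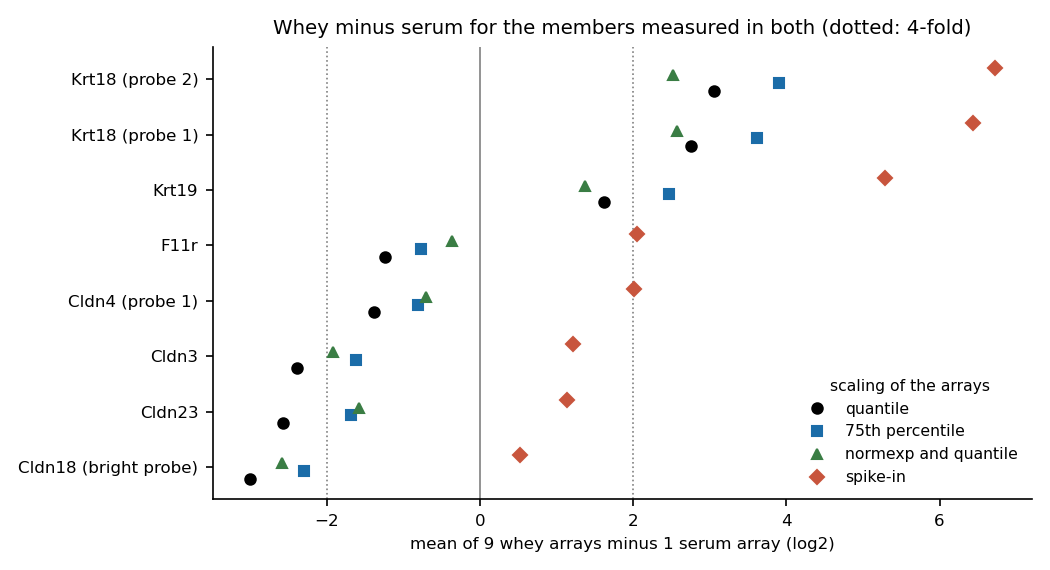
Log2 difference of the mean of 9 whey arrays from the 1 serum array (x axis) for the member probes described here that were measured in both fluids, under 4 scalings of the arrays, with dotted lines at 4-fold. Krt18 and Krt19 lie right of 0 under all 4, and the claudins and F11r lie left of 0 under 3 and right of 0 with spike-in scaling.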

How the data were processed

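Total RNA of whey and serum was labelled by the authors from 100 ng per array with Cy3 after linear amplification and hybridised to 1-colour Agilent whole rat genome arrays. The deposited scanner files, made with Agilent Feature Extraction 9.5.3.1 according to the submitters' notes, hold per-spot signal intensities, among them a background-subtracted processed signal, and per-spot quality flags. The deposited quantile-normalised series table was not used, since none of its 10 sample columns carries a name found in the labels. Groups and dam numbers came from the sample titles.

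From the 10 scanner files, log2 processed signals of non-control spots were quantile normalised over all 10 arrays. Outlier-flagged spots were then left out (none was a member spot, and no member spot was saturated), and spots of 1 probe were averaged. Probes were tested if well above background with a processed signal over 20 on at least 1 whey array. The 3 pairs of days were compared in 1 limma fit (3.58.1, R 4.3.3) of the 9 whey arrays with 6 residual and 1.83 prior degrees of freedom and Benjamini-Hochberg adjustment at 0.05 over all 16849 probes. Recovery of changes set in simulated data was checked beforehand. Errors beside differences are standard errors and intervals are at 95%. Serum, 1 array, was compared by differences and a 4-fold limit without a test, and a probe not above background in 1 fluid has a lower bound on its fold. With 3 arrays per day, the number of arrays limits the precision.

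The same 3 dams were sampled each day per the titles, so dam numbers pair the arrays. Deviations from the day means correlated at -0.018 to 0.218 over the 9 same-dam pairs of arrays and at -0.254 to 0.158 over the 18 other pairs of different days. Slides were read from the barcodes in the names of the scanner files. Alternatives were scaling to the 75th percentile or to 9 spike-in probes, normexp background correction (offset 50), other filters, whey arrays normalised alone, dam or slide as a block, and leaving out each array.

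Members with values on all 3 arrays of at least 1 day were given by array, others by range and count, and those on no whey array by name. The values of 1 member gene are not reported here, and counts over the members include it. The members and gene lists were chosen with earlier results of these data known. Gene names are those of the array, and 63 of 67 member probes matched a current RefSeq symbol by accession, of which 1 differed. Probe positions are those of the files on rn4, promoter windows are from RefSeq on GRCr8.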

Additional observations from a re-analysis of the deposited data

How the results depend on the processing

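The scaling decided most. Scaled to the spike-in probes, 5 members were called between d 2 and d 9 (4 higher and 1 lower, none of the original calls) and 1 between d 2 and d 16, while the medians of all tested probes moved to 1.52 and 0.58. The member lower on d 9 and the member called on d 16 were both Krt72. The d 9 differences turned to 0.09 for Cldn3, 0.24 for Cldn4 probe 1, 0.23 for Cldn7, 0.69 and 0.64 for Krt18, 0.18 for Krt8 and 0.67 for Krt33a, and the d 16 difference of Tjp3 to 0.25. The serum differences of Cldn18, Cldn23 and Cldn3 turned to 0.52, 1.14 and 1.21, with 6 members over 4-fold higher in whey and 0 in serum. Over 4-fold higher in serum was 1 member with 75th percentile scaling and 1 with normexp. With 75th percentile scaling 18 of the 20 called differences kept their call, and with normexp 19.

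The d 2 to d 9 count was 6 without a filter on dim probes, 4 with the arrays of those days alone, 1 with slide as a fixed block and 0 within the shared slide. Leaving out 1 array gave 4 to 12 calls for d 9 and 5 to 14 for d 16, with 4 for d 9 without dam 2 on d 2 or dam 2 on d 9, and 5 for d 16 without dam 2 on d 2 or any 1 of the d 16 arrays. Between d 9 and d 16, leaving out 1 array gave 0 to 1 calls, normexp gave 1, and slide as a random block (correlation -0.081) gave 1, Cldn4 probe 2. With dam as a replicate block the counts were 11, 10 and 0, and the block changed no call but those of Cldn18 and Tjp3 given above and that of Tjp1 probe A_44_P978899, above background on 3 whey arrays, which passed on d 16 (0.94, adjusted p = 0.0134). A minimum signal of 100 left 12, 16, 14 and 2 members detected on d 2, d 9, d 16 and in serum. Leaving out 1 array of a day gave 20 to 22, 24 to 28 and 24 to 25. The cause of these shifts was not tested.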
